A study of Rattus norvegicus with 6 samples.

Results

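The genes described are the amino acid and neurotransmitter transporters of the rat hippocampus, taken as every gene whose RefSeq symbol begins with Slc1a, Slc3a, Slc6a, Slc7a, Slc36a, Slc38a or Slc43a. They were 60 of the 15168 named genes on the array, measured by 73 probes, and the probe with the highest mean log2 signal stood for each gene. A gene was tested if its probe rose well above background on 3 or more of 6 arrays, which 50 of the 60 genes did and 10 did not. RefSeq holds 69 symbols of this kind, and 9 of them, Slc7a1 among them, matched no probe. The rule also takes in Slc7a6os, a gene named only for its place next to Slc7a6, which is no transporter.

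Hippocampal total RNA from male Sprague Dawley (SD) rats was hybridised to single-colour Agilent arrays, 1 array per tissue sample. The 3 AD samples came from adult rats given Aβ1-42 oligomers into the cerebral ventricles, an injection model with no transgene. The 3 Sham samples came from adult rats of the sham group, and the paper does not state what these rats were given. No other allele or agent is named for either group, the time after injection is not given in the sources used here, and nothing ties a sample to 1 animal, so each p-value below measures the spread between samples.

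Transporters of these families move amino acids and transmitters across the cell membrane. Those of Slc1 and Slc6 clear glutamate, GABA, glycine and monoamines from around synapses, largely with the help of the sodium gradient. Those of Slc7 exchange amino acids, and several of them reach the membrane only when joined to a heavy chain of Slc3. Those of Slc38 carry glutamine and other neutral amino acids, which neurons use to make glutamate and GABA.

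Levels are log2 processed signals minus the 75th percentile of the array, so 0 is that percentile, and differences are AD minus Sham on the log2 scale. The 3 AD arrays shared 1 scan. Sham 1 and Sham 2 shared another scan on the same day, and Sham 3 was scanned on another day, so scan and group cannot be told apart. Sham 3 was dimmer, with a 75th percentile signal of 429 against 753 to 932 on the other arrays, and it was the highest of the 6 arrays for 21 of the 50 genes. The tissue held markers of other sources: choroid plexus genes had a median difference of 1.84 over 16 tested genes, and their median level stood 2.43, 0.35 and 3.16 above the Sham mean on AD 1, AD 2 and AD 3. The 1 of these genes called higher, Rbm47, cleared the background on all 3 AD arrays but on 0 of the Sham arrays, so it passed the filter only through the group where it was high. Neuronal markers had a median of -0.48 (0 of 8 called higher, 5 lower) and GABAergic interneuron markers -0.65 (0 of 11 called higher, 5 lower). A separate list of hippocampal neuron markers had a median of 0.16 (0 of 7 called higher, 1 lower), with 5 positive and 2 negative. Oligodendrocyte markers had a median of 0.53 (5 of 9 called higher, 0 lower). Skeletal muscle markers had a median of 0.97 (1 of 9 called higher, 0 lower). Their median level stood 0.85, 0.65 and 2.52 above the Sham mean on AD 1, AD 2 and AD 3. Among them Tnnt3 and Myh4 cleared the background on 3 AD arrays and 0 Sham arrays, so both passed the filter only through AD. In such bulk tissue, fewer cells of a type and less RNA per cell cannot be told apart.

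Of the 50 tested transporters, 5 passed an adjusted p of 0.05 in limma, 2 of them higher in AD (Slc6a20a and Slc7a5) and 3 lower (Slc38a4, Slc7a3 and Slc6a5). That is 10% of the genes, against 12.6% of all 22768 tested probes, of which 4.15% were called higher and 8.4% lower. The share called was therefore near the background of the array. The balance of directions over all probes moved with the scaling, since 33.1% of calls were higher in the main setting, 53.2% with the percentile taken over detected probes, 24.3% after median scaling and 17.4% after normexp background correction. Normexp also shifted the median of all probes to -0.15, against -0.01 in the main setting.

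Over the 50 genes the median difference was -0.06, with 23 positive and 27 negative. The median size of a difference was 0.26, and 0.23 over all tested probes. AD arrays all lay above Sham arrays for 12 genes, which happened for 15.6% of all probes, and all below for 13 genes, which happened for 23.4% of all probes. For 25 genes the groups overlapped. At a fold change of 2 with an unadjusted p under 0.05, 3 of the 50 genes passed, all lower in AD, and 2.25% of all probes did.

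**Figure D1:**
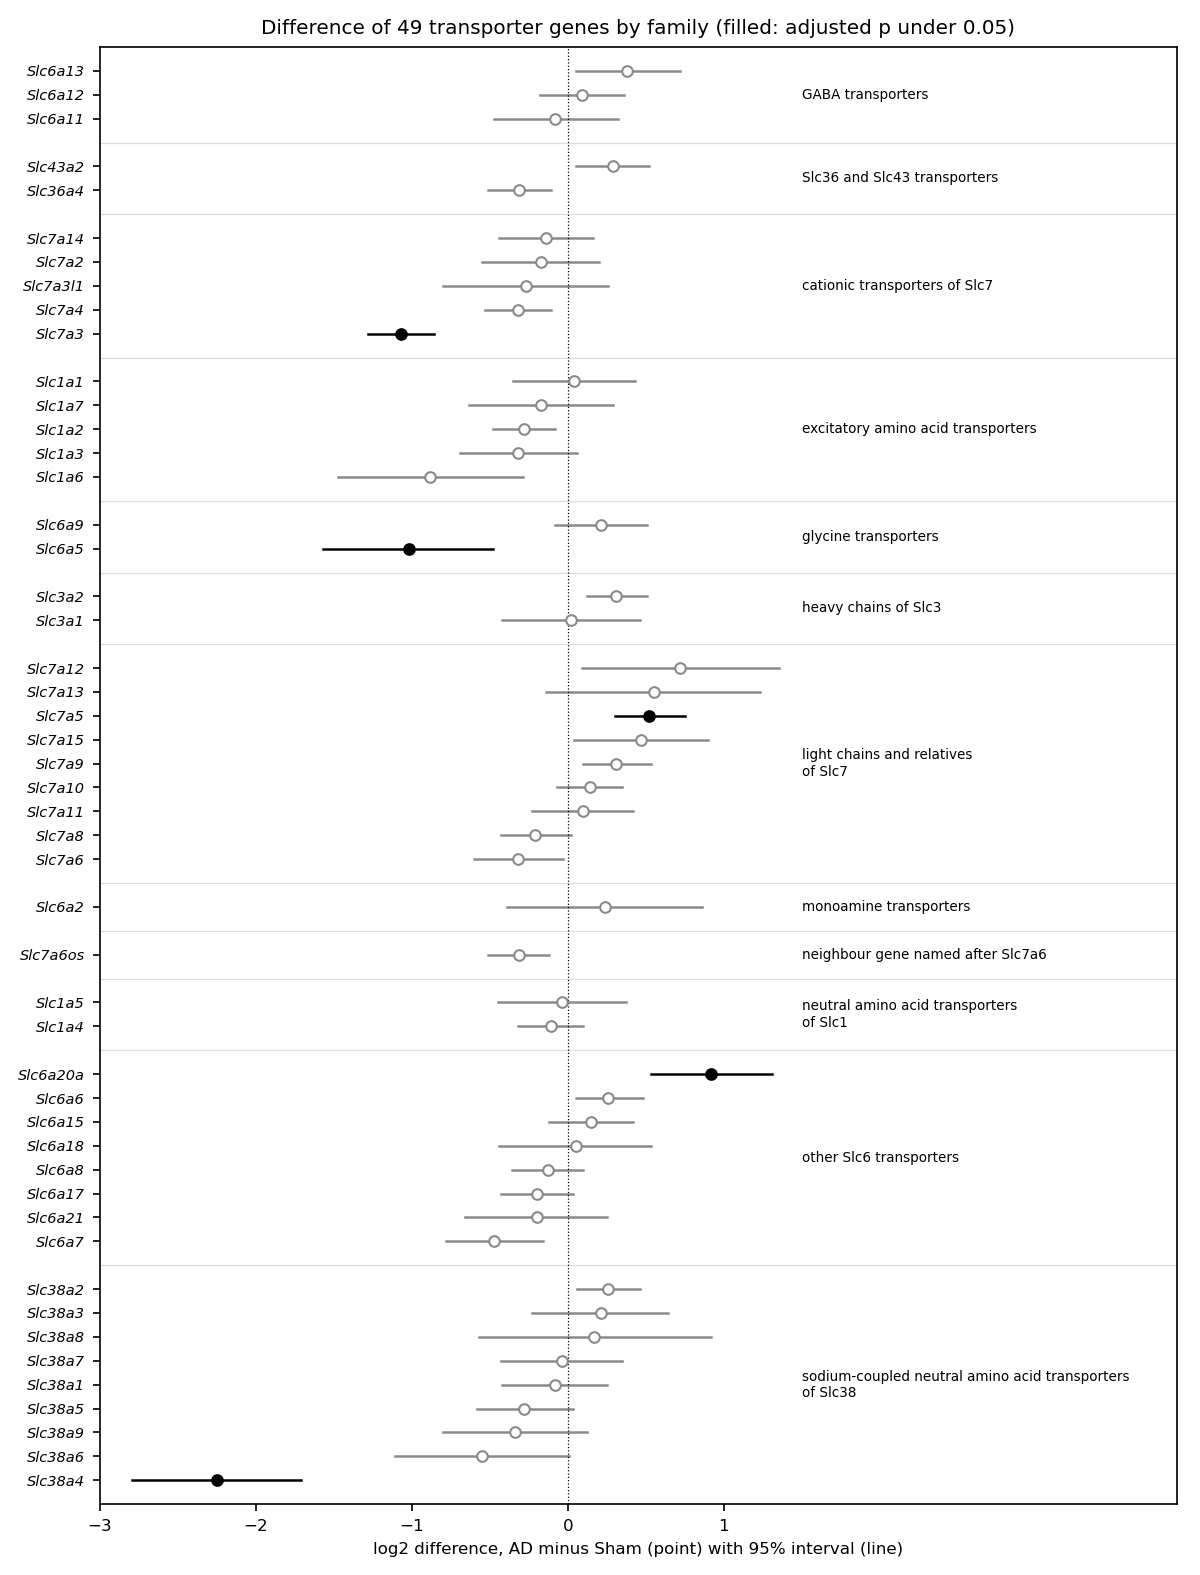
Difference of 49 of the 50 tested transporter genes (AD minus Sham, log2, horizontal axis) by family, with its 95% interval as a line. Filled points passed an adjusted p of 0.05: Slc38a4 at -2.25 lies farthest from 0, and Slc6a20a at 0.92 is the highest.

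Promoters from RefSeq (GRCr8) are shown for the called genes and for Slc3a2, whose protein is the heavy chain partner of Slc7a5. They are shown because the results turn on these genes. Each runs 5′ to 3′ from 250 bases before the first listed start to 50 after it, with every CpG dinucleotide in capitals. Of the 60 genes, 46 had an entry, and Slc7a3 had none. The Slc7a5 promoter held 42 CpG dinucleotides, a number reached by 2.54% of the 27457 promoters, and the Slc3a2 promoter held 26. The Slc38a4, Slc6a20a and Slc6a5 promoters held 6, 14 and 12, beside a median of 7 over all promoters and 12.5 over the 46.
Slc7a5 (chr19:66872363-66872662, minus strand): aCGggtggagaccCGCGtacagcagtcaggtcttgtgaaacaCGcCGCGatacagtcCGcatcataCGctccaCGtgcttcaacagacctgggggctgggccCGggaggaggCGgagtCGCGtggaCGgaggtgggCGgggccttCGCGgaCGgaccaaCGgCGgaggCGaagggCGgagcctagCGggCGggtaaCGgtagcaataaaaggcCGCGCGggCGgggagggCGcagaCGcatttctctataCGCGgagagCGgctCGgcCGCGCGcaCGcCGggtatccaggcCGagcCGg
Slc3a2 (chr1:215048015-215048314, minus strand): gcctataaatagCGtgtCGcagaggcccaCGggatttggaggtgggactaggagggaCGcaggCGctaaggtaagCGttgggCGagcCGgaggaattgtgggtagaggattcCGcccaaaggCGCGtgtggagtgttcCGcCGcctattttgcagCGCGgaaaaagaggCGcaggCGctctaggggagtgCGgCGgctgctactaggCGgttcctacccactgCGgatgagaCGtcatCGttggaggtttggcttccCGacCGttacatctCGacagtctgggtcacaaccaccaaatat
Slc38a4 (chr7:130082120-130082419, minus strand): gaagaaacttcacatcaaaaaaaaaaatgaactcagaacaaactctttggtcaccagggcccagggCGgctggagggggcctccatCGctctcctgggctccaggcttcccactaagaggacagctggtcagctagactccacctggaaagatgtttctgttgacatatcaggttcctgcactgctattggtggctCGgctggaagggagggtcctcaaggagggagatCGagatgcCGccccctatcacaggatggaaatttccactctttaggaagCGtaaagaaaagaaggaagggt
Slc6a20a (chr8:132199851-132200150, minus strand): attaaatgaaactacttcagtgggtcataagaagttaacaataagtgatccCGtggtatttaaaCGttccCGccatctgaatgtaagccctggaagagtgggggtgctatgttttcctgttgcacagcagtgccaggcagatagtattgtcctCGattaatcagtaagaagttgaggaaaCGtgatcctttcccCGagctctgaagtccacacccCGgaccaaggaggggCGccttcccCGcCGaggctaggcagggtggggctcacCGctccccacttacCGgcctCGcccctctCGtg
Slc6a5 (chr1:108781303-108781602, plus strand): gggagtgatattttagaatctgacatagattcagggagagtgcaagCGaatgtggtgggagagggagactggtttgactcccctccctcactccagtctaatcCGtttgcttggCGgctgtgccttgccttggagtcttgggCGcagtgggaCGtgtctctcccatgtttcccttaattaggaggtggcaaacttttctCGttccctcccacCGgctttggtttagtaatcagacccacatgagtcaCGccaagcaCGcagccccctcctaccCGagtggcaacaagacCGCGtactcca

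The same windows were searched on both strands for CACGTG, the E-box, which reads the same on both strands, and for TGATGNAAN, the amino acid response element, which does not overlap it in its letters. An E-box was found in 8 of the 46 promoters and in 6.65% of all promoters, and in Slc7a5 it began at -179 from the start. The response element was found in Slc1a4 and Slc38a1, 2 of the 46, and in 3.8% of all promoters. Both genes overlapped between the groups, with differences of -0.11 and -0.08.

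The largest difference was in Slc38a4, a carrier of neutral amino acids best known from liver. Its level was -4.92, -4.94 and -4.93 on the AD arrays, against -2.19, -2.78 and -3.07 on the Sham arrays. The AD arrays lay close together and 1.84 below the lowest Sham array. The difference was -2.25 ± 0.22 (SE), 4.75-fold lower in AD, with an adjusted p of 0.0183. The study itself lists Slc38a4 among genes lowered in these samples, so its place here is not independent evidence. After normexp the difference was -1.24 and still called. The median of 12 meningeal and fibroblast markers stood 0.01, -0.01 and -0.05 from the Sham mean on the AD arrays and 0.38, -0.04 and -0.28 from it on the Sham arrays, so among the Sham arrays both that list and Slc38a4 were highest on Sham 1 and lowest on Sham 3, and the list's part in the result was not tested. Of these markers 2 were called higher (Ptgds at 0.91 and Ogn at 0.82) and 0 lower, with 6 positive and 6 negative.

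The other 8 Slc38 genes were not called. Slc38a6 had the second-largest negative difference among uncalled genes, with levels of -3.20, -2.96 and -3 in AD, against -2.37, -2.13 and -3 in Sham. The groups met at Sham 3, and the difference of -0.55 had an adjusted p of 0.165. Slc38a2, a widely expressed glutamine carrier, had levels of 2.70, 2.81 and 2.66 in AD, against 2.45, 2.46 and 2.48 in Sham. Its AD arrays all lay higher, and its difference of 0.26 ± 0.08 had an adjusted p of 0.0897. The remaining 6 genes ran between -0.34 (Slc38a9, a lysosomal sensor of arginine) and 0.21 (Slc38a3, the glutamine carrier of astrocytes).

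Slc7a3, a cationic amino acid transporter of neurons that carries arginine and lysine, was lower in AD. Its level was -0.58, -0.56 and -0.63 in AD, against 0.55, 0.38 and 0.51 in Sham. The groups stood 0.95 apart at their nearest arrays, and the spread within a group was small (SD 0.03 in AD and 0.09 in Sham, n = 3 each). The difference was -1.07 ± 0.09, 2.1-fold, with an adjusted p of 0.0183. It stayed between -1.12 and -0.94 under all 20 alternatives. The other 4 cationic members (Slc7a2, Slc7a3l1, Slc7a4 and Slc7a14) were all negative, between -0.32 and -0.14, and none was called. For Slc7a14 the sign was not stable: its dimmer probe gave 0.05, and its main probe gave 0.05 after quantile normalization.

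**Figure D2:**
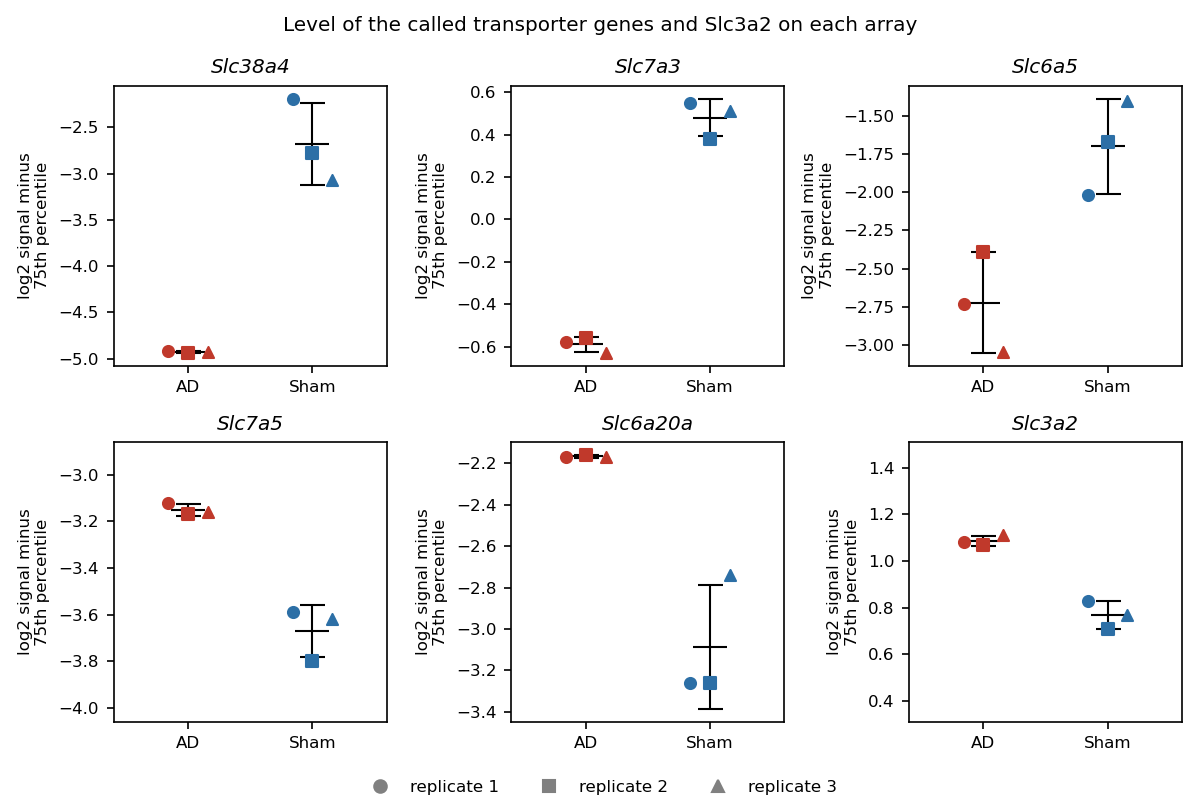
Level of the 5 called genes and of Slc3a2 on each array (log2 signal minus the 75th percentile of the array, vertical axis, a scale of its own in each panel), AD left and Sham right. Points are arrays and bars are the mean ± SD of 3 arrays: in all 6 panels the AD arrays lie on 1 side of the Sham arrays, and the SD in AD is 0.01 for both Slc38a4 and Slc6a20a.

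Among the light chains of Slc7, which exchange large neutral amino acids, cystine and others, Slc7a5 was higher in AD. Slc7a5 carries leucine and its like, and is a transporter of the blood-brain barrier. Its level was -3.12, -3.17 and -3.16 in AD, against -3.59, -3.80 and -3.62 in Sham. Every AD array lay above every Sham array, and the difference was 0.52 ± 0.09, 1.44-fold, with an adjusted p of 0.0261. After normexp it was 0.14 with an adjusted p of 0.472 and the call was lost. The endothelial markers had a median difference of 0.24 (1 of 9 called higher, 0 lower), and their part in the result was not tested.

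Slc3a2, its heavy chain, had levels of 1.08, 1.07 and 1.11 in AD, against 0.83, 0.71 and 0.77 in Sham. The AD arrays again lay above the Sham arrays, by 0.24 at the nearest. The difference was 0.31 ± 0.08, and its adjusted p of 0.0533 missed the threshold. It was called in 7 of 20 alternatives and was positive in all 20, between 0.26 and 0.40. These 7 include the scan day block and the fit without Sham 3, which are the same comparison. The other heavy chain, Slc3a1, differed by 0.02, with an interval of -0.42 to 0.46.

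The other 8 light chains and relatives were not called. Slc7a12 had the largest positive difference among uncalled genes: -2.39, -2.28 and -2.42 in AD, against -3.09, -2.56 and -3.61 in Sham, a difference of 0.72 with an adjusted p of 0.119. Slc7a13 had levels of -5.18, -4.78 and -5.12 in AD, against -5.93, -4.95 and -5.85 in Sham, where 1 of 3 arrays was well above background. Slc7a15 had levels of -3.54, -3.50 and -3.48 in AD, against -4.16, -4.19 and -3.58 in Sham. The AD arrays lay above the Sham arrays for Slc7a12 and Slc7a15 and overlapped them for Slc7a13, whose difference of 0.55 had an adjusted p of 0.239, against 0.47 and 0.131 for Slc7a15. Slc7a11, the cystine and glutamate exchanger, differed by 0.10, and its dimmer probe by 0.44 with an adjusted p of 0.14. Slc7a6 and Slc7a8 were the only negative members, at -0.32 and -0.21.

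Transporters of the transmitters themselves were mostly uncalled, and glycine gave the exception. Slc6a5, which supplies glycine to the terminals of glycinergic neurons and is known best from brainstem and spinal cord, had levels of -2.73, -2.39 and -3.05 in AD, against -2.02, -1.67 and -1.40 in Sham. The AD arrays were all below the Sham arrays, by 0.37 at the nearest. The difference was -1.02 ± 0.22, 2.03-fold, with an adjusted p of 0.039. Its second probe was well above background on only 1 AD array and 0 Sham arrays, and was not tested. Slc6a9, which clears glycine into glia, had levels of -1.63, -1.70 and -1.39 in AD, against -1.68, -1.93 and -1.76 in Sham. These overlapped, with a difference of 0.21 and an adjusted p of 0.283.

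None of the 5 glutamate transporters was called. Slc1a2, the main glutamate transporter of astrocytes, had levels of 2.63, 2.68 and 2.52 in AD, against 2.90, 2.89 and 2.87 in Sham, so the AD arrays were all lower. Its difference of -0.28 ± 0.08 had an adjusted p of 0.0778 and its second probe gave -0.23. Slc1a3, the other astrocytic transporter, had levels of 4.79, 5.22 and 4.78 in AD, against 5.08, 5.28 and 5.38 in Sham, which overlapped, with a difference of -0.32 and an adjusted p of 0.219. Its dimmer probe separated the groups, with a difference of -0.44 ± 0.08 and an adjusted p of 0.0284, so the probes of this gene gave different calls. The astrocyte markers had a median difference of 0.01 over 8 genes, and 0 were called.

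Slc1a6, a glutamate transporter known best from cerebellar Purkinje cells, had levels of -4.97, -4.83 and -5.01 in AD, against -3.56, -4.07 and -4.54 in Sham. The AD arrays were all lower, and Sham spread widely (SD 0.49, against 0.10 in AD). The difference of -0.88 was the largest of the uncalled genes, with an adjusted p of 0.0652. Slc1a1, the neuronal transporter, and Slc1a7 differed by 0.04 and -0.17, with intervals of -0.35 to 0.43 and -0.63 to 0.29. Slc1a4 and Slc1a5, which carry neutral amino acids, differed by -0.11 and -0.04.

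GABA transporters were not called either. Slc6a13, which is known from meninges and liver, had levels of -4.04, -3.81 and -4.25 in AD, against -4.53, -4.30 and -4.43 in Sham. All AD arrays were higher, and the difference of 0.38 had an adjusted p of 0.115. Slc6a11 and Slc6a12 overlapped between the groups, with differences of -0.08 and 0.09.

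Of the monoamine transporters, only Slc6a2 passed the filter on signal. This carrier of noradrenaline had levels of -2.07, -1.90 and -1.57 in AD, against -2.47, -2.21 and -1.57 in Sham, and the difference of 0.24 had an adjusted p of 0.571. Slc6a3 and Slc6a4, which carry dopamine and serotonin, were well above background on 0 of 6 arrays. The same held for Slc36a2, Slc36a3, Slc43a1, Slc6a14, Slc6a19 and Slc7a7. Slc36a1 and Slc43a3 were well above background on 2 AD arrays and on 0 Sham arrays.

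Slc6a20a, a proline carrier, was the called gene with the highest positive difference. Its level was -2.17, -2.16 and -2.17 in AD, against -3.26, -3.26 and -2.74 in Sham. The AD arrays agreed closely and lay above every Sham array, of which Sham 3 was the nearest. The difference was 0.92 ± 0.16, 1.89-fold, with an adjusted p of 0.026. After normexp it was 0.44, with an adjusted p of 0.166. The median choroid plexus marker stood 2.43, 0.35 and 3.16 above the Sham mean on AD 1, AD 2 and AD 3. Of the 12 meningeal and fibroblast markers, 2 were called higher and 0 lower, with 6 positive and 6 negative. The part of either list in the result was not tested.

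Slc6a7, which carries proline in neurons, had levels of -2.70, -2.53 and -2.77 in AD, against -2.02, -2.17 and -2.40 in Sham. The AD arrays were all lower, and the difference of -0.47 had an adjusted p of 0.0638. Slc6a6, the taurine carrier, differed by 0.26 (adjusted p = 0.105), and Slc6a8, the creatine carrier, by -0.13. The other Slc6 genes ran between -0.20 and 0.15. Slc36a4 was -0.31 with an adjusted p of 0.0614 and its second probe -0.33, while Slc43a2 was 0.29 on its brighter probe and -0.05 on its dimmer one.

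**Figure D3:**
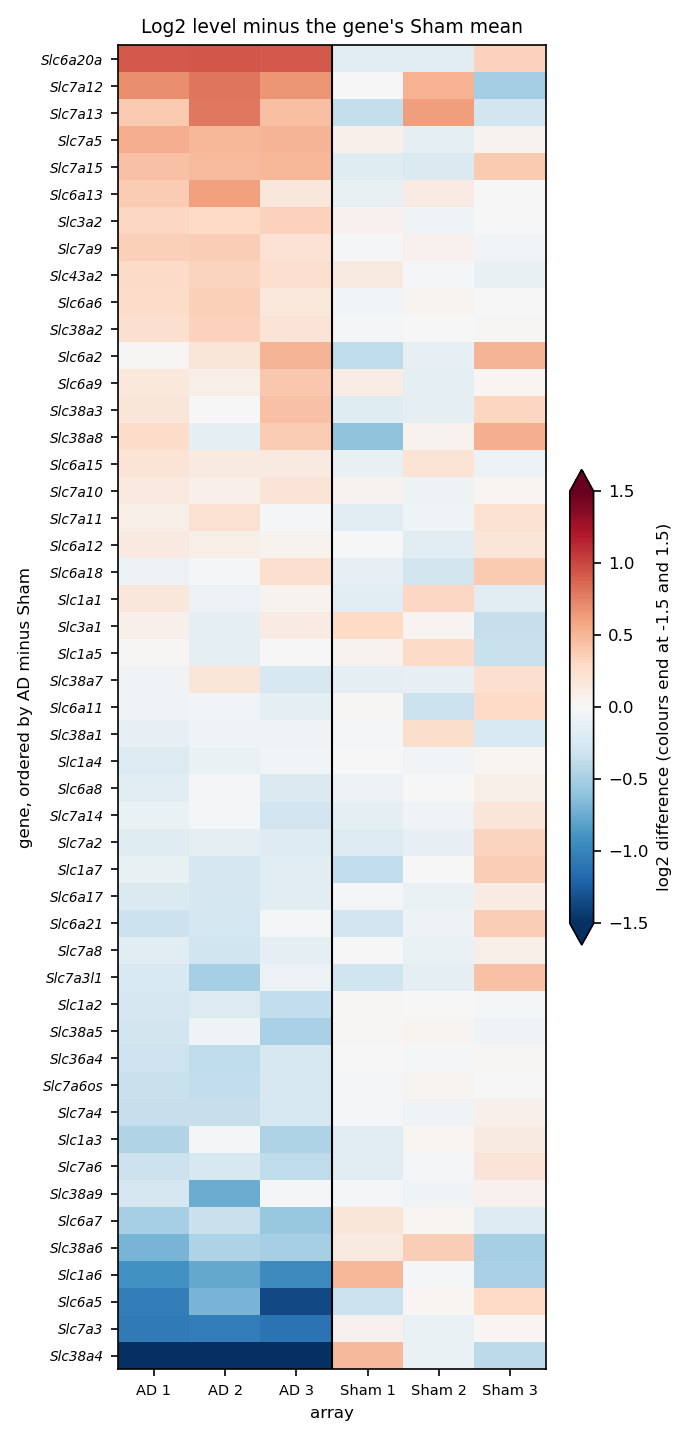
Log2 level of 49 of the 50 genes on each array minus the gene's Sham mean (colour, red higher and blue lower, ends at -1.5 and 1.5), AD arrays left of Sham arrays, genes ordered by difference. The AD columns are alike for most genes, with a median SD over all 50 genes of 0.08 in AD and 0.175 in Sham. Over all tested probes the median SD was 0.115 in AD and 0.176 in Sham. The 3 AD arrays shared 1 scan and the Sham arrays did not. Sham 3 is the highest array for 21 of the 50.

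Genes that work beside these transporters were listed as well. Of 8 genes that load synaptic vesicles or, for Slc5a7, take choline up at the plasma membrane, 1 was called, Slc32a1, which loads GABA and glycine. Its level was 2.65, 2.53 and 2.86 in AD, against 3.67, 3.54 and 3.43 in Sham, a difference of -0.86 ± 0.12 with an adjusted p of 0.0203. The list's median was -0.31, against -0.01 over all probes.

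Of 15 genes of glutamate and GABA metabolism, 0 were called higher and 3 lower, with a median of -0.24. Gad1, which makes GABA, was lower by 0.81 on the log2 scale: 3.53, 3.59 and 3.67 in AD, against 4.50, 4.33 and 4.40 in Sham. Srr, which makes D-serine, differed by -0.61 with an adjusted p of 0.0205. Slc32a1 and Gad1 are also in the interneuron marker list, 5 of whose 11 genes were called lower.

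Of 18 genes of the amino acid response, 0 were called higher and 2 lower, Aars1 at -0.54 and Mthfd2 at -0.33, with a median of -0.27. Atf4, which drives this response, was uncalled at -0.28. Of 7 amino acid carriers of other families, Slc16a10, a carrier of aromatic amino acids, was called higher: -4.44, -4.55 and -4.84 in AD, against -5.08, -5.28 and -5.11 in Sham, a difference of 0.55 ± 0.13 with an adjusted p of 0.0475. Slc32a1, listed there too, was the 1 called lower. Of 9 partners and regulators, 0 were called in limma, with a median of 0.13. Cltrn, the collectrin that escorts Slc6 transporters in kidney, varied most, with levels of 0.57, -2.70 and 1.37 in AD, against -5.52, -3.69 and -2.97 in Sham. It was well above background on 3 AD and 2 Sham arrays, and its difference of 3.81 ± 1.18 had an adjusted p of 0.0849. The median choroid plexus marker stood 2.43, 0.35 and 3.16 above the Sham mean on AD 1, AD 2 and AD 3. That list's part in the Cltrn levels was not tested.

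**Figure D4:**
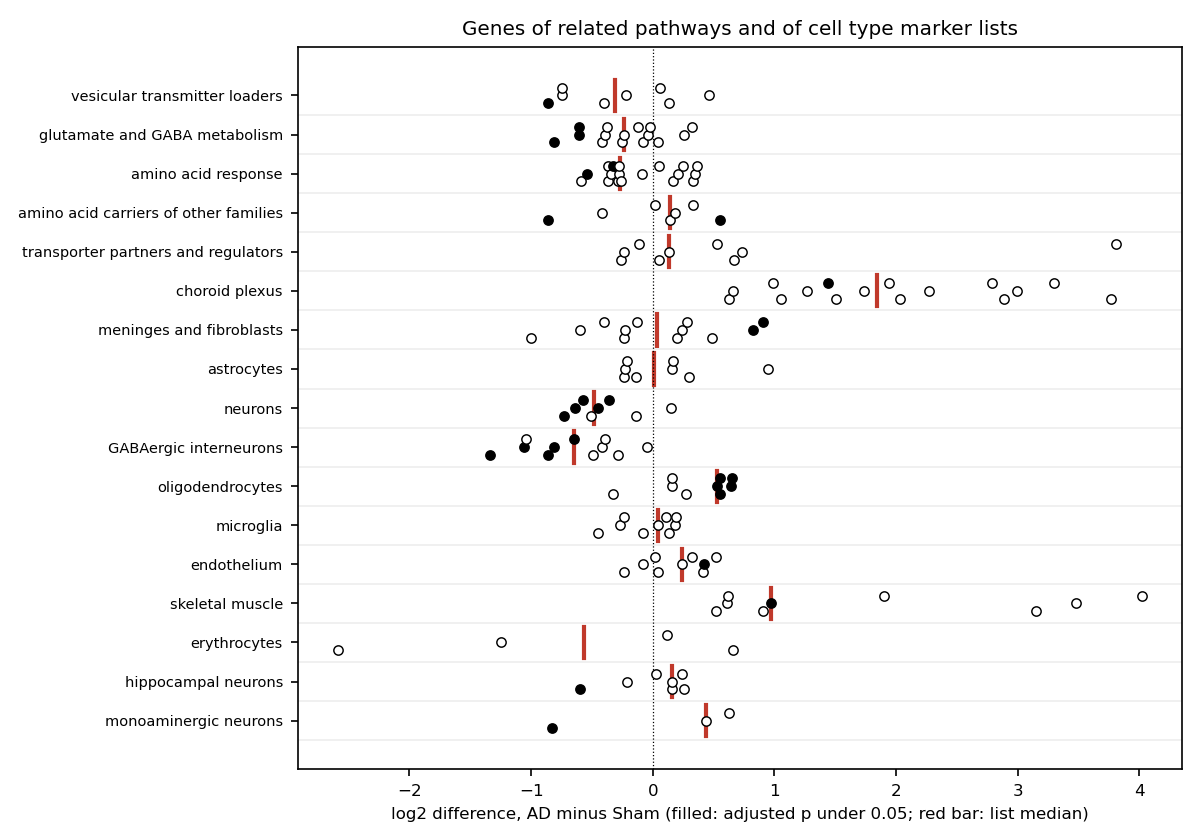
Difference of each tested gene (AD minus Sham, log2, horizontal axis) of 5 related pathway lists and 12 cell type marker lists, with filled points for an adjusted p under 0.05 and a red bar at each list's median. Choroid plexus markers have the highest median, 1.84, and GABAergic interneuron markers the lowest, -0.65.

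The calls were lost when most single arrays were left out, over the whole array and not among the transporters alone. Without any 1 of the 3 AD arrays, and without Sham 1 or Sham 2, no transporter passed in limma. The lowest adjusted p among the transporters lay between 0.0514 and 0.117. In the same fits 11 to 20 of the 50 transporters had an unadjusted p under 0.05, as did 4856 to 6442 of all probes. Of all 22768 probes, 2 were called without AD 3 and 0 without each of the other 4 arrays. Without Sham 3, which is also the comparison within the shared scan day, 4 genes were called higher and 5 lower, and Slc6a5 lost its call at -0.88, while 4468 of all probes were called. With scan as a random block, 0 transporters and 0 of all probes were called in limma. There, 7 of the 50 transporters and 3672 of all 22768 probes had an unadjusted p under 0.05. Directions of the 5 called genes were the same under all 20 alternatives.

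**Figure D5:**
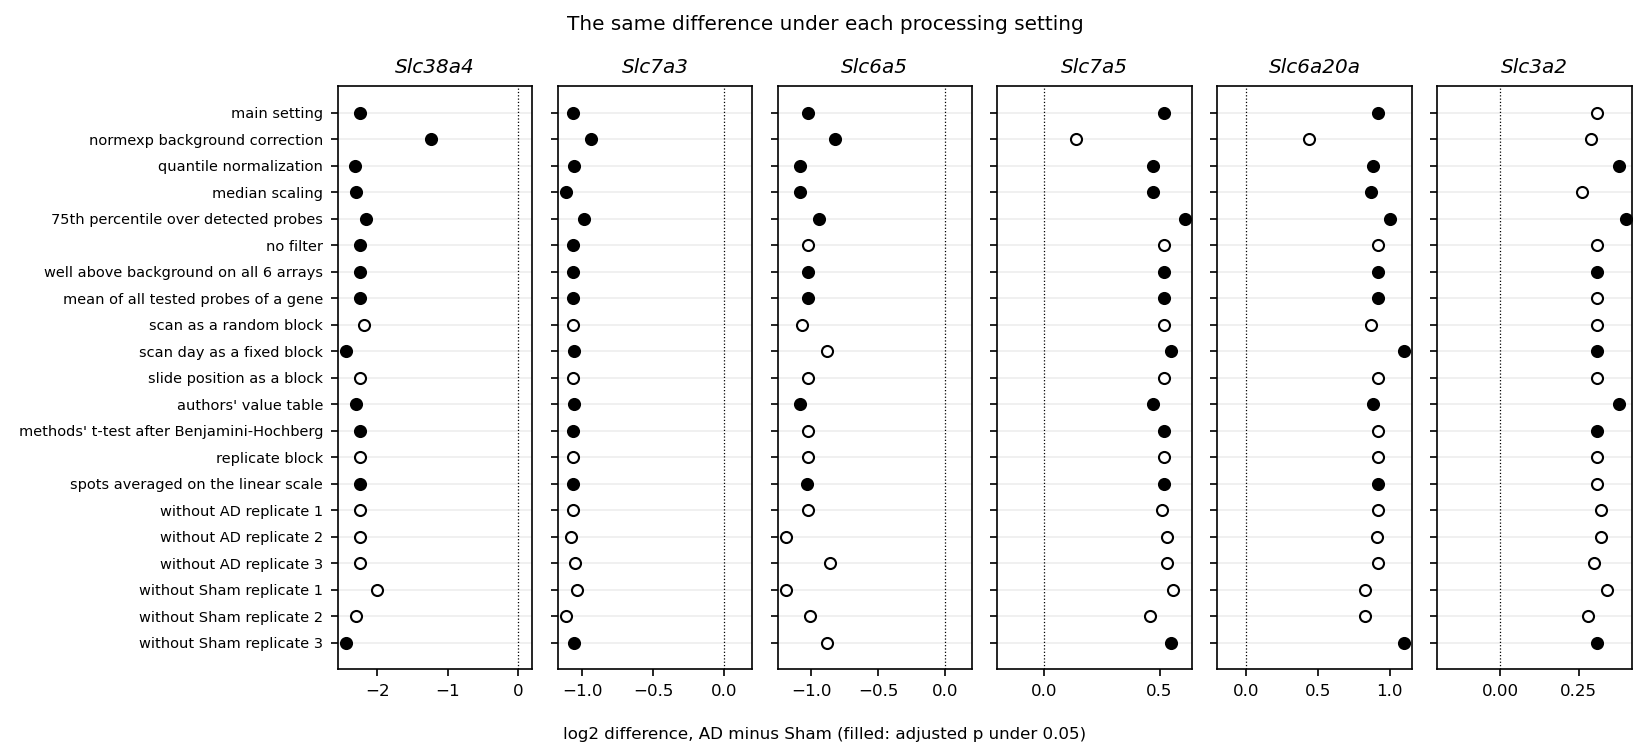
Difference (AD minus Sham, log2, horizontal axis, a scale of its own in each panel) of the 5 called genes and Slc3a2 in the main setting and under 20 alternatives, 1 row each. The row named slide position is a block on the barcode field of the file headers. Filled points passed an adjusted p of 0.05: Slc7a3 and Slc38a4 passed in 12 alternatives each, Slc7a5 in 10, Slc6a20a in 9 and Slc6a5 in 8. The alternatives are not independent: the scan day block equals the fit without Sham 3, and the authors' table nearly repeats quantile normalization.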

How the data were processed

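Hippocampal mRNA was measured on 6 single-colour Agilent arrays, grouped by the sample labels. The authors deposited scanner output with processed signal intensity per spot, background-subtracted, made with Agilent Feature Extraction 11.0.1.1 per the file headers. They also deposited a table of log2 values whose scaling is not stated; its columns for AD 2 and AD 3 matched each other's scanner arrays, and it served as an alternative. Control spots and 400 to 559 outlier spots per array were left out and log2 values of a probe's spots averaged. The averaging was first done on the linear scale and changed to log2 after results had been seen; the linear version is given as an alternative added after seeing the data. Log2 intensity minus each array's 75th percentile was tested in limma 3.58.1 under R 4.3.3 (lmFit, then eBayes), two-sided, Benjamini-Hochberg adjusted over the 22768 probes with signal well above background on 3 or more of 6 arrays. Symbols came from unversioned accessions matched to RefSeq (15252 of 26997 matched). Normexp (offset 50) used median signals. Scripts were tested on simulated data. Array number limits the precision. The members, gene lists and motifs were chosen with earlier results of these data known. Named genes were all called members, fixed members of each transmitter family, and the 3 largest uncalled differences in each direction. Values of some genes are counted but not reported here.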

Additional observations from a re-analysis of the deposited data

How the results depend on the processing

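In the main setting 2 transporters were called higher, 3 lower, and 2858 probes in all. Normexp gave 0 higher, 6 lower and 1763 probes. Quantile normalization and the authors' value table gave 5 higher and 5 lower each, with 2550 and 2542 probes in all. Median scaling gave 2 higher, 6 lower and 2836 probes. The percentile over detected probes gave 6 higher, 3 lower and 2671 probes. Without a filter 0 were called higher, 2 lower and 352 probes in all. The scan day as a fixed block gave 4, 5 and 4468. The random scan block, the block on the header barcode (drawn as slide position) and the replicate block each gave 0, 0 and 0. At an unadjusted p under 0.05 in limma they had 7, 20 and 18 of the 50 transporters. Of all 22768 tested probes they had 3672, 6480 and 6482. The methods' t-test after Benjamini-Hochberg gave 2 higher, 5 lower and 1848 probes. At fold 2 and an unadjusted p under 0.05 in limma, 0 were higher, 3 lower and 512 probes passed. With the methods' t-test at that threshold these were 0, 3 and 327. Leaving out 1 array gave 0 to 4 higher, 0 to 5 lower and 0 to 4468 probes. Averaging spots on the linear scale, an alternative chosen after seeing the data, gave 2, 3 and 2872. The cause of these moves was not tested.

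Same-numbered deviations correlated at 0.0283, 0.0721 and 0.138, and differently numbered ones between -0.119 and 0.0644. With 3 arrays a group, these values cannot settle whether replicate numbers pair the arrays. No called transporter changed direction under any alternative. Over all 50 genes and 20 alternatives, 875 values stayed with their main result, 36 moved by more than the replicate spread, 36 gained a call and 49 lost one. Genes near background carry the least certain levels.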
